A study of Mus musculus with 12 samples.

Results

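The AP-1 and immediate early genes described here are 10 genes chosen by name, Fos, Fosb, Fosl1, Fosl2, Jun, Junb, Jund, Atf3, Egr1 and Klf6, and all 10 were found among the 18929 genes that the count tables list. Their RNA was measured by poly(A)-selected RNA-Seq in enteroids, which are crypt cultures of the small intestine, here of murine jejunum grown for 5 days in ENR medium, the growth mixture of EGF, Noggin and R-spondin. The 12 libraries comprised 4 control libraries (called wild-type in the labels and villin-Cre control in the study's text), 4 Hdac1-deficient libraries and 4 Hdac2-deficient libraries. The mutant cultures came from mice with floxed Hdac1 or floxed Hdac2 and the villin-Cre transgene, a Cre active in the intestinal epithelium, and the mice had a mixed background of C57BL/6 J, 129SV and CD1. HDAC1 and HDAC2 are deacetylases that remove acetyl groups from histones and other proteins, and the comparisons asked which genes depend on each of them within the epithelium itself. The animals' age was not given in the sources used here. The methods describe crypts taken from 1 mouse per genotype, so genotype, mouse and culture line cannot be told apart, and the p-values measure the spread between libraries, which may be technical.

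AP-1 is a transcription factor made of pairs of bZIP proteins. Fos proteins bind DNA chiefly when paired with a Jun protein, whereas Jun proteins can also pair with each other, and ATF3 is a stress-induced bZIP protein that pairs with Jun proteins. EGR1 and KLF6 are zinc finger transcription factors and not AP-1 subunits. Immediate early genes are transcribed within minutes of a stimulus such as EGF or a stress, without prior protein synthesis. ERK acts on Fos and Egr1 through SRF and its partners at the CArG box, and JNK phosphorylates the JUN protein. In the intestinal epithelium, JUN is known for its link to Wnt signalling and crypt proliferation.

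RefSeq promoters of GRCm38.p6, running from 250 bases before to 50 bases after the start, were available for 8 of the 10 genes, all but Fosl1 and Egr1. The windows of Fos, Junb, Atf3 and Jun are printed because Fos and Junb moved in opposite directions in the mutants, Atf3 had the largest change of the tested members in each comparison with control, and Jun is the partner that all Fos proteins can use. They lie at chr12:85473640-85473939 on the plus strand for Fos, and on the minus strand at chr8:84978699-84978998 for Junb, chr1:191183284-191183583 for Atf3 and chr4:95052173-95052472 for Jun. The Atf3 window lies inside the annotated gene, which runs up to base 191218039, and no window at that upstream end was searched. Capitals mark the short CRE site TGACG in Fos, Junb and Atf3, which reads CGTCA where it lies on the opposite strand, and the variant site TGACATCA in Jun.
Fos: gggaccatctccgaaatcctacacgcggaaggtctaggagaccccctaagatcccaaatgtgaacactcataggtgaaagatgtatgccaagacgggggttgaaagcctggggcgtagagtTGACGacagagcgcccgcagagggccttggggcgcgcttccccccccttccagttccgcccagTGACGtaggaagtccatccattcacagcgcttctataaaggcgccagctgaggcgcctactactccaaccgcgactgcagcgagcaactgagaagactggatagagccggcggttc
Junb: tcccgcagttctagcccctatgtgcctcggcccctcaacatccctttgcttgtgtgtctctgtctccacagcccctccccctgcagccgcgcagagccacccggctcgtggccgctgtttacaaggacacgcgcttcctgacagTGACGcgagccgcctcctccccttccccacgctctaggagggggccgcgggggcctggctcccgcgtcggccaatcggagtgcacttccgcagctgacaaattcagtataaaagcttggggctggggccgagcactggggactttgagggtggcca
Atf3: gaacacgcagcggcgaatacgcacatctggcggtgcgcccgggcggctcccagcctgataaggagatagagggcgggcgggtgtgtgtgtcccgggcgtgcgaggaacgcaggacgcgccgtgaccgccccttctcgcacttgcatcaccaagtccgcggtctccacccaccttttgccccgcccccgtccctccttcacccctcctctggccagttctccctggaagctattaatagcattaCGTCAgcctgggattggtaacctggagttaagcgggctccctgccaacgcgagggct
Jun: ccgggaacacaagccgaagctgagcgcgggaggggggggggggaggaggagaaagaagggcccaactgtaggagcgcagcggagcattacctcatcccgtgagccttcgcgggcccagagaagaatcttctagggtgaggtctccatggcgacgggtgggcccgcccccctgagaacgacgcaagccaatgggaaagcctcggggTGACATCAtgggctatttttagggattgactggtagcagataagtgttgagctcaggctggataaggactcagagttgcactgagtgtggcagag

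Both strands of the 8 windows were searched for 6 motifs, and positions count from the start, with the last base before it at -1. The short CRE site TGACG, which also lies inside the full CRE TGACGTCA, was found in 4 of 8 windows, at -129 and -66 in Fos, -60 in Fosb, -106 in Junb and -7 in Atf3. It was held by 20.8% of all 32851 RefSeq mouse promoters of this length. The variant site TGACATCA was found in 2 of 8 windows, at -45 in Jun and -119 in Klf6, and in 3.62% of all promoters. The EGR site GCGNGGGCG was found in 2 of 8 windows, at -50 in Fosb and -79 in Fosl2, and in 5.55% of all promoters. The AP-1 site TGACTCA, the full CRE and the CArG box had matches in 0 of 8 windows, and in 5.20%, 1.79% and 1.63% of all promoters. An absent match says only that these letters are not in this window.

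The libraries held 20693200 to 30658628 counted reads each. Levels are given as CPM, counts scaled to library size with TMM factors, and 3 counts, taken as the limit of detection, correspond to 0.0979 to 0.145 CPM, a limit that covers counting error only. The check of the labels found Hdac1 at 90.6 ± 2.76 CPM in control, 4.23 ± 0.834 in the Hdac1 mutant and 75.3 ± 4.39 in the Hdac2 mutant (SD, n = 4 each). Hdac2 stood at 137.0 ± 3.85, 111.7 ± 3.83 and 75.9 ± 2.89 CPM in the same groups. Counts are summed over the whole gene, so they do not measure the deleted part of Hdac2 by itself. The epithelial markers Epcam (1243 CPM in control) and Cdh1 (845 CPM in control) were abundant. The summed fibroblast markers reached at most 0.356 CPM in any library, and Col1a2, Dcn and Lum were not listed in both tables, nor was Cd3e of the blood cell markers.

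Per kilobase of exon, the control enteroids held most RNA of Jund, at 158.5 ± 5.49 CPM per kb, followed by Junb at 39.3 ± 0.773, Klf6 at 21.6 ± 0.836, Jun at 15.2 ± 0.684 and Fosl2 at 11.2 ± 0.479. Fos followed at 6.67 ± 0.382 CPM per kb, Egr1 at 4.34 ± 0.142, Atf3 at 3.81 ± 0.392, Fosl1 at 0.564 ± 0.129 and Fosb at 0.0517 ± 0.00883 (SD, n = 4). Egr1 and Atf3 were the closest neighbours in control, and the other steps in this order were larger than the spread between libraries. The order of the first 5 genes was the same in both mutants. Atf3 moved up to a level of 5.93 ± 0.397 CPM per kb in Hdac1-deficient libraries, overlapping Fos at 5.56 ± 0.401, and to 7.34 ± 0.592 in Hdac2-deficient libraries, overlapping Egr1 at 5.96 ± 0.701. Jund made up 74.4% ± 0.783 of the summed Jun family level in control, 76.7% ± 0.870 in the Hdac1 mutant and 71.4% ± 0.149 in the Hdac2 mutant. Junb, the most changed Jun gene, made up 18.4% ± 0.547, 14.9% ± 0.790 and 21.98% ± 0.298. Within the Fos family, Fosl2 made up 60.6% ± 2.48, 66.6% ± 1.70 and 58.5% ± 2.27, and Fos 36.0% ± 1.90, 30.3% ± 1.92 and 38.7% ± 3.03. The summed Fos family level was 18.5 ± 0.339 CPM per kb in control, 18.3 ± 0.408 in the Hdac1 mutant and 25.8 ± 0.986 in the Hdac2 mutant, and the summed Jun family level 212.9 ± 5.67, 205.1 ± 5.20 and 248.0 ± 8.68.

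At an adjusted p of at most 0.05 against control, Fos and Junb fell and Fosl2, Jun, Atf3 and Klf6 rose in the Hdac1 mutant. In the Hdac2 mutant, 8 of 9 tested members rose and 0 fell, and Fosb was not tested there. None of the changes exceeded 2-fold. Changes are given as log2 fold changes (LFC), with the first-named group over the second. Each mutant was tested against the same 4 control libraries with edgeR's quasi-likelihood test and Benjamini-Hochberg adjustment over all tested genes, and the mutants were set against each other in 1 fit of the 12 libraries. In the Hdac1 mutant, 4 of 10 tested members rose and 2 fell at an adjusted p of at most 0.05, where 32.7% of all 14246 tested genes rose and 31.9% fell. These counts lay near the shares of all genes and are no result about the members as a set. In the Hdac2 mutant, 8 of 9 tested members rose, where 31.4% of all 14007 tested genes rose and 30.9% fell. In the direct comparison, 7 of 10 tested members were lower in the Hdac1 mutant than in the Hdac2 mutant and 0 were higher, where 23.7% of all 14510 tested genes were lower and 22.3% higher. With a change above 2-fold also required, 0 members were called by edgeR in each comparison, against 10.6%, 8.3% and 5.62% of all tested genes, and DESeq2 also called 0. At an unadjusted p under 0.05 without a limit on the fold, edgeR counted 6, 8 and 9 members, beside 67.5%, 65.7% and 52% of all tested genes. The libraries of the compared groups did not overlap in CPM for 6 of 10 tested members in the Hdac1 mutant against control, 7 of 9 in the Hdac2 mutant against control and 6 of 10 between the mutants, beside 58.4%, 56% and 41.7% of tested genes listed in both tables. The median LFC of the tested members was 0.13, 0.44 and -0.30 in the 3 comparisons, beside -0.0040, -0.0036 and 0.0054 for all tested genes.

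**Figure D1:**
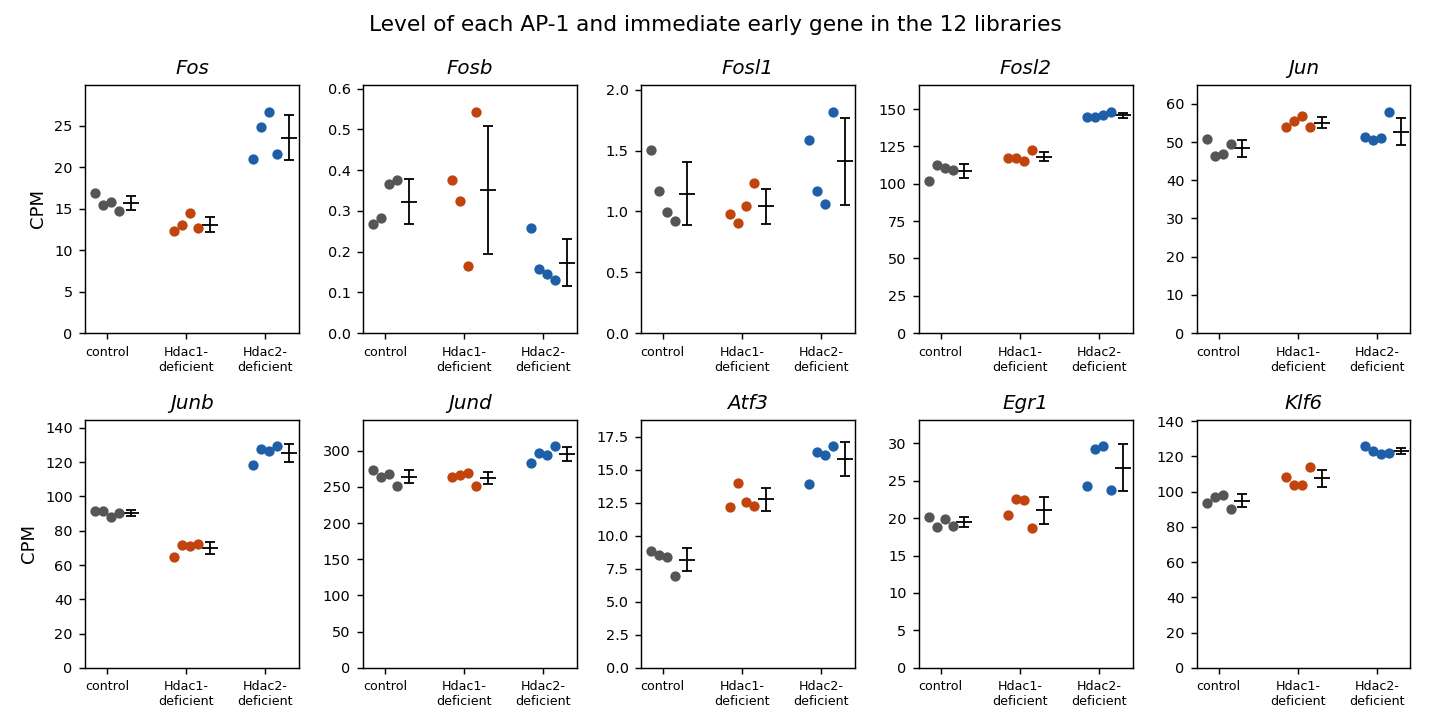
CPM (vertical axes, from 0) of the 10 genes in the 12 libraries, as points in replicate order for control, the Hdac1 mutant and the Hdac2 mutant, with the mean and SD of each group (n = 4) as a black bar. Fos and Junb are lowest in the Hdac1 mutant and highest in the Hdac2 mutant, while Atf3 is above control in all 8 mutant libraries.

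Fos, the founding member of the Fos family, lies at chr12:85473890-85477273 on the plus strand of GRCm38. It stood at 16.8, 15.4, 15.8 and 14.7 CPM in the control libraries, at 12.3, 13.02, 14.4 and 12.6 CPM in the Hdac1-deficient libraries and at 21.02, 24.9, 26.7 and 21.6 CPM in the Hdac2-deficient libraries. All Hdac1-deficient libraries were below, and all Hdac2-deficient libraries above, every control library. Fos fell in the Hdac1 mutant with an LFC of -0.25 (SE 0.07, adjusted p = 0.0030). It rose in the Hdac2 mutant with an LFC of 0.59 (SE 0.07, adjusted p = 6.1e-07). The mutants differed directly by an LFC of -0.84, the Hdac1 mutant minus the Hdac2 mutant (SE 0.07, adjusted p = 5.0e-10).

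Fosl2, which encodes FRA2, had the most RNA of the Fos family and lies at chr5:32135801-32157842 on the plus strand. Control libraries held 102.0, 112.8, 110.3 and 109.1 CPM, Hdac1-deficient libraries 117.0, 117.1, 115.4 and 122.6 CPM, and Hdac2-deficient libraries 144.5, 144.8, 146.0 and 148.3 CPM. The 3 groups did not overlap. Fosl2 rose slightly in the Hdac1 mutant, with an LFC of 0.14 (SE 0.04, adjusted p = 0.0032), and more in the Hdac2 mutant, with an LFC of 0.44 (SE 0.03, adjusted p = 3.0e-10). The direct difference was -0.30 (SE 0.03, adjusted p = 2.1e-08). Against control, Fos and Fosl2 moved in opposite directions in the Hdac1 mutant and in the same direction in the Hdac2 mutant.

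Fosl1, which encodes FRA1 (chr19:5447547-5455946, plus strand), and Fosb (chr7:19302696-19310051, minus strand) had the lowest levels of the 10 genes. Fosl1, with 22 to 45 counts per library, stood at 0.918 to 1.51 CPM in control, 0.907 to 1.23 in the Hdac1 mutant and 1.06 to 1.82 in the Hdac2 mutant, and the groups overlapped. Its adjusted p was 0.57 in the Hdac1 mutant and 0.22 in the Hdac2 mutant, and its direct difference of -0.45 (SE 0.21, adjusted p = 0.087) became -0.55 (adjusted p = 0.047) without Hdac2-deficient replicate 3. In the exons, 1163 bases of Fosl1 are shared with Ccdc85b on the opposite strand, and whether counting used the strand is not given in the sources used here. Ccdc85b stood at 25.1 ± 1.26, 10.7 ± 0.770 and 12.6 ± 0.791 CPM, and its part in the Fosl1 value was not tested. Fosb was counted 8 to 11 times per control library, 5 to 15 times per Hdac1-deficient library and 3 to 7 times per Hdac2-deficient library. These counts gave 0.323 ± 0.0551, 0.352 ± 0.157 and 0.172 ± 0.0581 CPM, and all Hdac2-deficient libraries lay below all control libraries. Fosb was filtered from the test of the Hdac2 mutant against control. It stayed in the direct fit through its counts in control and Hdac1-deficient libraries. Its direct log2 difference between the mutants of 0.96 had an SE of 0.42 (adjusted p = 0.063). The difference passed the threshold without Hdac1-deficient replicate 3 (5 counts), at 1.21 (adjusted p = 0.019). It also passed without Hdac2-deficient replicate 1 (7 counts), at 1.24 (adjusted p = 0.041). The former library was the lowest of its group and the latter the highest of its group. On these few counts, neither value is support for a difference.

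Junb, a Jun family member that is itself an immediate early gene, showed the smallest adjusted p of the 10 genes in each comparison (chr8:84974484-84978718, minus strand). It stood at 91.5, 91.6, 87.8 and 90.4 CPM in control, at 64.9, 71.9, 71.3 and 72.1 CPM in the Hdac1 mutant and at 118.1, 128.0, 126.3 and 129.3 CPM in the Hdac2 mutant. The groups did not overlap. Junb fell in the Hdac1 mutant with an LFC of -0.35 (SE 0.04, adjusted p = 1.7e-07) and rose in the Hdac2 mutant with an LFC of 0.48 (SE 0.03, adjusted p = 9.8e-11). The direct difference was -0.84 (SE 0.04, adjusted p = 7.2e-16), as large as that of Fos. Junb shares 173 exon bases with Prdx2, a peroxiredoxin gene on the opposite strand. Prdx2 changed by an LFC of -0.36 (adjusted p = 7.5e-08) in the Hdac1 mutant and -0.11 (adjusted p = 0.0099) in the Hdac2 mutant, which is the direction of Junb in the former and the opposite one in the latter. The part of Prdx2 in the Junb value was not tested.

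Jun (chr4:95049034-95052222, minus strand) stood at 50.8, 46.3, 46.8 and 49.6 CPM in control, 54.0, 55.5, 56.8 and 54.0 CPM in the Hdac1 mutant and 51.4, 50.5, 51.1 and 58.0 CPM in the Hdac2 mutant. The Hdac1-deficient libraries all exceeded control, and Jun rose with an LFC of 0.20 (SE 0.04, adjusted p = 2.9e-04). The Hdac2-deficient libraries overlapped control, and the LFC of 0.14 (SE 0.05, adjusted p = 0.016) was no longer past the threshold without Hdac2-deficient replicate 4, at 0.08 (adjusted p = 0.13). It was also lost without control replicate 2 or 3 and with library size in place of TMM. The direct difference of 0.07 (SE 0.04, adjusted p = 0.25) did not pass the test, but became 0.11 (adjusted p = 0.039) without Hdac2-deficient replicate 4. Jun, unlike Fos and Junb, rose in the Hdac1 mutant.

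Jund, which is usually transcribed in unstimulated cells, lies at chr8:70698949-70700616 on the plus strand. Its control libraries held 273.6, 264.3, 267.6 and 251.9 CPM, its Hdac1-deficient libraries 264.1, 265.9, 269.4 and 250.7 CPM, and its Hdac2-deficient libraries 282.7, 297.3, 294.5 and 306.3 CPM. Control and Hdac1-deficient libraries covered nearly the same range, with an LFC of 0.0047 (SE 0.03, adjusted p = 0.91). The Hdac2-deficient libraries lay above both, with an LFC of 0.17 against control (SE 0.03, adjusted p = 7.5e-05) and a direct difference of -0.17 (SE 0.03, adjusted p = 1.2e-04). Opposite-strand exons overlap Jun (Junos, 232 bases) and Jund (Gm11175, 877 bases). Both neighbours were counted below 1 CPM on average in every group, and their part in the values of Jun and Jund was not tested.

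Atf3 was the member with the largest rise in both mutants among those tested (chr1:191170296-191218039, minus strand). It stood at 8.89, 8.52, 8.42 and 6.97 CPM in control, at 12.2, 14.02, 12.6 and 12.3 CPM in the Hdac1 mutant and at 13.9, 16.4, 16.1 and 16.8 CPM in the Hdac2 mutant. All mutant libraries were above all control libraries. The rise was 1.57-fold in the Hdac1 mutant (LFC 0.65, SE 0.08, adjusted p = 5.1e-07) and 1.93-fold in the Hdac2 mutant (LFC 0.95, SE 0.08, adjusted p = 1.2e-09). The direct difference was -0.30 (SE 0.07, adjusted p = 0.0015), although Hdac1-deficient replicate 2 lay just above Hdac2-deficient replicate 1. Without Hdac2-deficient replicate 1, the rise in the Hdac2 mutant passed 2-fold, at an LFC of 1.01.

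Egr1, which encodes a zinc finger factor induced through ERK and SRF, stood at 20.2, 18.9, 19.8 and 19.0 CPM in control, at 20.4, 22.6, 22.5 and 18.7 CPM in the Hdac1 mutant and at 24.3, 29.3, 29.6 and 23.8 CPM in the Hdac2 mutant. Only the Hdac2-deficient libraries all exceeded control. The LFC was 0.13 in the Hdac1 mutant (SE 0.06, adjusted p = 0.077) and 0.46 in the Hdac2 mutant (SE 0.07, adjusted p = 9.2e-06), and the direct difference was -0.34 (SE 0.07, adjusted p = 4.8e-04). Without Hdac1-deficient replicate 4 the first value became 0.18 with an adjusted p of 0.011.

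Klf6, a zinc finger factor of the Krüppel-like family, lies at chr13:5861482-5870394 on the plus strand. It stood at 93.6, 97.2, 98.4 and 90.3 CPM in control, at 108.4, 103.6, 104.0 and 114.1 CPM in the Hdac1 mutant and at 125.8, 123.4, 121.6 and 122.0 CPM in the Hdac2 mutant. The groups did not overlap. The LFC was 0.19 in the Hdac1 mutant (SE 0.04, adjusted p = 1.9e-04) and 0.39 in the Hdac2 mutant (SE 0.03, adjusted p = 1.3e-09), and the direct difference was -0.20 (SE 0.03, adjusted p = 4.7e-05). Klf6 and Fosl2 had the same order of groups, without overlap. The means of Atf3 and Egr1 also had that order, but libraries of some groups overlapped.

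In bulk RNA, fewer cells of a type and less RNA per cell cannot be told apart. Markers are counted as risen or fallen at an adjusted p of at most 0.05 (edgeR). At that threshold 32.7% of all tested genes rose and 31.9% fell in the Hdac1 mutant, and 31.4% and 30.9% in the Hdac2 mutant. The summed stem cell markers, among them Lgr5 and Olfm4, stood at 3567 to 3768 CPM in control, 2005 to 2343 in the Hdac1 mutant and 1679 to 1875 in the Hdac2 mutant, and 5 of 5 fell in each mutant. The summed enterocyte markers, among them Alpi and Fabp1, stood at 6732 to 7165, 12890 to 14859 and 10123 to 11430 CPM, and 5 of 5 rose in each mutant. The summed goblet cell markers, among them Muc2 and Tff3, stood at 1417 to 1674, 1546 to 1669 and 2451 to 2690 CPM; 3 rose and 1 fell in the Hdac1 mutant and 5 rose in the Hdac2 mutant. Muc2 stood at 83.0 CPM in the Hdac1 mutant and 82.9 CPM in the Hdac2 mutant. The summed Paneth cell markers, among them Lyz1 and Defa17, stood at 1384 to 1634, 2051 to 2193 and 2207 to 2338 CPM; 1 rose, Lyz1, and 1 fell in the Hdac1 mutant, and 4 rose in the Hdac2 mutant. The enteroendocrine markers, among them Chga and Chgb, summed to 213 to 226, 244 to 274 and 249.5 to 271 CPM, with 3 that rose in the Hdac1 mutant, and 2 that rose and 1, Chga, that fell in the Hdac2 mutant. Epithelial markers summed to 4391 to 4579, 4687 to 4790 and 5541 to 5703 CPM. Tuft cell markers, among them Dclk1 and Trpm5, summed to 5.23 to 5.90, 4.57 to 6.74 and 3.10 to 3.71 CPM, blood cell markers to 1.88 to 2.26, 2.69 to 3.77 and 4.08 to 5.08 CPM, and endothelial markers to 1.38 to 1.88, 1.05 to 1.52 and 1.43 to 1.74 CPM. The part of these cell types in the results on AP-1 genes was not tested. The summed heat shock genes stood at 6886 to 7087 CPM in control, 5793 to 6119 in the Hdac1 mutant and 5927 to 6264 in the Hdac2 mutant. This sum follows the list's most abundant genes, and the genes moved both ways. Of 16 tested in the Hdac1 mutant 4 rose and 6 fell, and of 15 in the Hdac2 mutant 3 rose and 6 fell. Whether stress in culture differed between the groups was not tested.

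The other genes of the pathway were counted by role, with lists compiled for this purpose. Where values come in pairs, the Hdac1 mutant is given before the Hdac2 mutant. Counts use an adjusted p of at most 0.05 (edgeR) without a limit on the fold. At that threshold 32.7% of all tested genes rose and 31.9% fell in the Hdac1 mutant, and 31.4% and 30.9% in the Hdac2 mutant. In the direct comparison 22.3% were higher and 23.7% lower. A count near these shares is no result about a list. Of 45 tested immediate early genes other than the members, 17 rose and 20 fell in the Hdac1 mutant (median LFC -0.06), 23 rose and 11 fell in the Hdac2 mutant (median 0.10), and 26 were lower and 1 was higher in the Hdac1 mutant than in the Hdac2 mutant (median -0.19). The 1 that was higher was Nfkbiz, an NF-kB regulator, at 11.4 ± 0.301, 29.3 ± 2.86 and 21.4 ± 2.38 CPM in control, the Hdac1 mutant and the Hdac2 mutant, with a direct log2 difference of 0.47 (adjusted p = 1.0e-05). Sgk1, a kinase gene, rose in both mutants, from 2.52 ± 0.188 CPM to 7.10 ± 1.24 and 6.68 ± 0.538, with LFCs of 1.51 (adjusted p = 2.4e-09) and 1.42 (adjusted p = 2.4e-10). Ctgf, a matricellular protein gene, rose with LFCs of 1.02 (adjusted p = 2.6e-05) and 1.29 (adjusted p = 3.0e-06). Phlda1 fell in both, with LFCs of -1.04 (adjusted p = 9.3e-15) and -0.60 (adjusted p = 1.8e-13).

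Of 22 tested bZIP partners and relatives of AP-1, 8 rose and 8 fell in the Hdac1 mutant (median LFC -0.02), 12 rose and 4 fell in the Hdac2 mutant (median 0.17), and 2 were higher and 11 lower in the direct comparison (median -0.13). Jdp2, a repressor that pairs with Jun proteins, stood at 1.08 ± 0.134, 2.48 ± 0.178 and 3.95 ± 0.795 CPM. Its LFC was 1.21 in the Hdac1 mutant (adjusted p = 1.1e-06) and 1.88 in the Hdac2 mutant (adjusted p = 5.0e-09), with a direct difference of -0.67 (adjusted p = 3.0e-04). Maf, a bZIP factor gene, rose in both mutants, with an LFC of 1.04 (adjusted p = 1.4e-10) in the Hdac1 mutant and 1.15 (adjusted p = 1.1e-12) in the Hdac2 mutant. Creb3l1, a membrane-bound bZIP factor, fell from 78.4 ± 3.69 CPM to 27.8 ± 2.98 and 42.1 ± 2.29.

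Upstream, 19 of 36 tested genes of the ERK, JNK, p38 and SRF pathways rose and 7 fell in the Hdac1 mutant (median LFC 0.10), and 14 rose and 5 fell in the Hdac2 mutant (median 0.04). Between the mutants, 6 of 37 were higher and 7 lower in the Hdac1 mutant (median 0.0023). Elk3, a ternary complex factor that partners SRF, rose with LFCs of 1.18 (adjusted p = 3.5e-06) and 1.39 (adjusted p = 6.9e-05), and Mapk11, a p38 kinase gene, with 0.65 (adjusted p = 9.9e-05) and 1.01 (adjusted p = 7.4e-07). Of 18 ERK feedback inhibitors, 4 rose and 8 fell in the Hdac1 mutant (median -0.11), 6 rose and 7 fell in the Hdac2 mutant (median 0.0024), and 1 was higher and 7 lower in the direct comparison (median -0.10). Dusp4, a phosphatase that inactivates ERK, fell from 72.5 ± 5.66 CPM to 24.9 ± 1.23 and 32.0 ± 3.44, with LFCs of -1.53 (adjusted p = 9.0e-15) and -1.17 (adjusted p = 5.4e-08). Il17rd, an inhibitor of FGF signalling to ERK, fell with -0.54 (adjusted p = 2.3e-07) and -1.02 (adjusted p = 1.0e-11). Of the 16 heat shock genes tested in the Hdac1 mutant, 4 rose and 6 fell, and of 15 in the Hdac2 mutant, 3 rose and 6 fell (medians -0.02 and -0.0034). Between the mutants, 3 of 16 were higher and 4 lower (median 0.03).

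Downstream, 28 genes reported as targets of AP-1 or EGR1 could be tested against control. In the Hdac1 mutant, 8 rose and 6 fell (median LFC 0.05), and in the Hdac2 mutant, 21 rose and 1 fell (median 0.36). Of 31 tested between the mutants, 19 were lower and 2 higher in the Hdac1 mutant (median -0.30). Hmox1, the gene of heme oxygenase, stood at 5.88 ± 0.384, 4.87 ± 1.02 and 12.98 ± 1.45 CPM, with an LFC of -0.27 (adjusted p = 0.060) in the Hdac1 mutant and 1.15 (adjusted p = 3.0e-10) in the Hdac2 mutant. Other targets rose in both mutants, such as S100a6, from 36.8 ± 2.75 CPM to 124.9 ± 13.5 and 194.9 ± 14.8, and Sprr1a, a cornified envelope gene, from 15.9 ± 2.10 CPM to 50.9 ± 2.79 and 50.2 ± 1.98. Thbs1, the thrombospondin 1 gene, rose from 5.22 ± 0.470 CPM to 12.3 ± 0.950 and 12.3 ± 1.59. The list's genes thus shared no single pattern over the 3 groups.

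**Figure D2:**
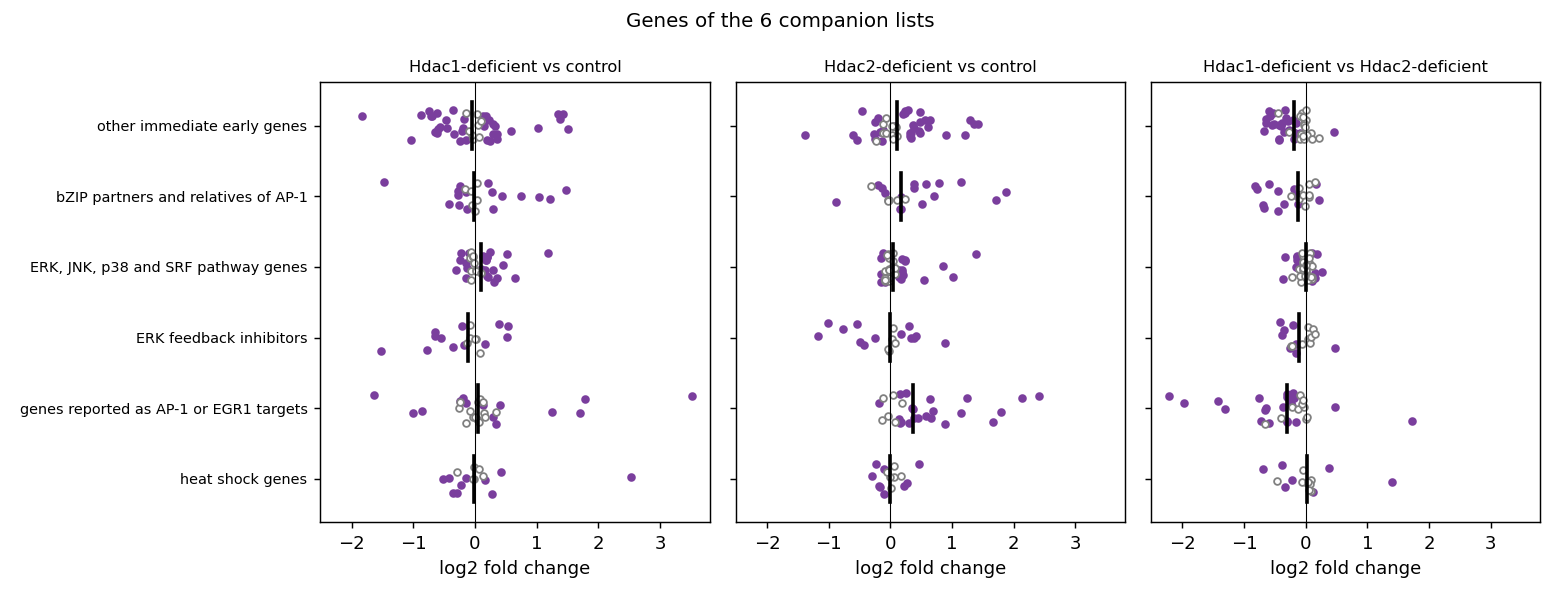
LFC (horizontal axis) of the tested genes of the 6 companion lists (rows) in the 3 comparisons (panels); each point is a gene, filled where it passed an adjusted p of 0.05, and the vertical bar in each row is the list's median. The median of the reported target genes lies at 0.36 in the Hdac2 mutant against control and at 0.05 in the Hdac1 mutant against control.

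Levels were next followed across the 12 libraries as Pearson's r of log2 CPM, given as a description with no test, since libraries of a group share genotype and culture. Before group means were removed, Fos followed Junb most closely of the members, at r = 0.955 (n = 12), and Fosl2 followed Klf6 at 0.947. With group means removed, so that only variation within groups remained, the highest r among 28 pairs of 8 members was that of Fos and Egr1, at 0.848. Within control it was 0.885, within Hdac1-deficient libraries 0.653 and within Hdac2-deficient libraries 0.963 (n = 4 each). Hdac2-deficient replicates 2 and 3 held the 2 highest levels of Fos and of Egr1 in their group. Fos and Junb fell to 0.404 with group means removed, and Fos and Jun stood at -0.129. Jund and Atf3 reached 0.811, with 0.965, 0.394 and 0.946 within the 3 groups. Fosl2 and Klf6 stood at 0.511, with 0.409 within control, 0.906 within Hdac1-deficient and -0.712 within Hdac2-deficient libraries, and the lowest value was that of Jun and Klf6 at -0.524. The median over the 28 pairs was 0.143.

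**Figure D3:**
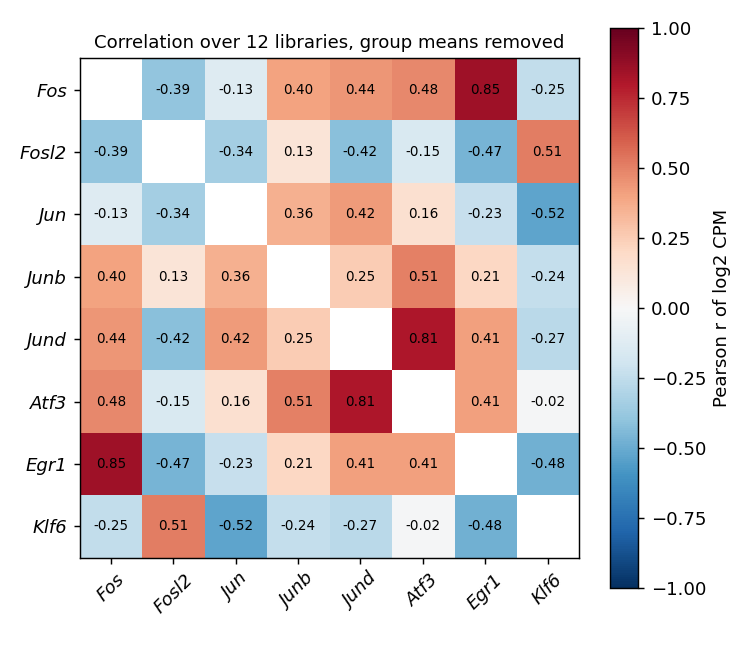
Pearson r of log2 CPM over the 12 libraries between 8 of the members after each group's mean was removed; Fosb and Fosl1 were left out for low counts. Colour and printed number give r, and the pair of Fos and Egr1 stands highest at 0.85.

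Among 11409 genes of at least 1 log2 CPM on average, the genes outside the 10 members that were most like Fos over the 12 libraries were Cldn4, a tight junction claudin (r = 0.989), Maff, a small Maf bZIP factor (r = 0.976), and Lrrc26 (r = 0.974). Cldn4 stood at 106.5 ± 5.15, 91.8 ± 3.18 and 144.2 ± 12.3 CPM in control, the Hdac1 mutant and the Hdac2 mutant, and its r to Fos with group means removed was 0.863. Most like Egr1 were Oasl1 (r = 0.957), Sp5 (r = 0.952) and Alkbh3 (r = 0.945), with 0.838, 0.807 and 0.781 once group means were removed. Because all these genes were picked by r over the same 12 libraries, their values with group means removed are not separate evidence. Among the genes most like Jun were Ube2g2 (r = 0.932) and Snf8 (r = 0.920). Most like Atf3 were Lgals9 (r = 0.982), Mocos (r = 0.981) and Arhgap29 (r = 0.978). Lgals9, the galectin 9 gene, stood at 428.8 ± 8.47, 487.1 ± 9.59 and 532.3 ± 3.50 CPM.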

How the data were processed

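RNA was measured in 12 libraries, and groups follow the genotype in the sample labels. The authors aligned reads to GRCm38 with STAR (2.4.0f1 in the submitters' processing notes); the counting program, its annotation and its strand setting are not given in the sources used here. The authors deposited 1 table per mutant with whole-number counts per gene without normalization, with identical control counts in both, and listed genes whose counts summed to 10 or more. The authors also deposited a normalised score (the count times a factor per library, rounded), log2 fold changes, average log2 CPM and p-values of their own comparisons, none of which was used.

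Counts were tested with edgeR 4.0.16 in R 4.3.3 (quasi-likelihood F test, robust dispersions, TMM, filterByExpr, Benjamini-Hochberg adjustment over all tested genes). The 2 comparisons with control used 8 libraries each and the direct comparison all 12. A standard error is the log2 fold change divided by the square root of F, and CPM use TMM factors of all 12 libraries. Depth was 20693200 to 30658628 counts, and the biological coefficient of variation was 0.0425, 0.0384 and 0.0394. Gene positions and exon lengths came from GENCODE M21 on GRCm38, which matched 18817 of the 18929 genes, and promoters from RefSeq. The members and lists were chosen with earlier results of these data known. Genes named beyond the members are up to 4 genes per companion list with the largest change above 2-fold and an average log2 CPM of at least 1, per comparison with control, the 3 genes most like each of Fos, Egr1, Jun and Atf3, and the first genes of each marker list. Overlapping neighbours were named for position. Some genes that this rule names are not reported here. Alternatives were DESeq2 1.42.0, relative log expression factors, library size alone, no filter, a mean of at least 10 counts, no limit on the fold, another set of libraries in the fit, the replicate number as a block and each library left out in turn. Scripts were tested on simulated counts.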

Additional observations from a re-analysis of the deposited data

Results flagged for a closer look

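Each of the 10 genes was checked in each of the 3 groups for 1 library far from the other 3, and 2 of 30 group values stood apart, where chance gives about 1 in 20. Jun in Hdac2-deficient replicate 4 was at 58.0 CPM, with the other 3 libraries between 50.5 and 51.4 CPM. Junb in Hdac1-deficient replicate 1 was at 64.9 CPM, with the other 3 between 71.3 and 72.1 CPM; the fall of Junb was past the threshold without any 1 library.

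Fos and Junb changed in opposite directions in the mutants, with every Hdac1-deficient library below and every Hdac2-deficient library above control. The direct difference, tested with edgeR in the fit of all 12 libraries, was a log2 fold change of -0.84 for Fos (adjusted p = 5.0e-10) and -0.84 for Junb (adjusted p = 7.2e-16).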

How the results depend on the processing

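Without a limit on the fold, 6, 8 and 7 members were called in Hdac1-deficient against control, Hdac2-deficient against control and the direct comparison, in place of 0, and 9196, 8729 and 6665 genes in place of 1507, 1162 and 816. Without the filter on low counts, 2335 and 1792 genes were called against control. With each library left out in turn, the number of members called ranged from 0 to 1 in Hdac2-deficient against control, where the 1 was Atf3 without Hdac2-deficient replicate 1. It ranged from 0 to 1 in the direct comparison, where the 1 was Fosb without Hdac1-deficient replicate 3 or Hdac2-deficient replicate 1. In the direct comparison, the number of members on the higher side in the Hdac1 mutant ranged from 0 to 1, the 1 being Fosb without those libraries or Jun without Hdac2-deficient replicate 4. The Fosb calls rested on few counts and are not taken as a difference. In Hdac1-deficient against control, values that missed the threshold turned sign. The log2 fold change of Jund was -0.0053 without the filter, -0.0072 with all 12 libraries in the fit and -0.0175 to 0.0274 with each library left out; that of Fosb ranged from -0.16 to 0.37 and that of Fosl1 from -0.23 to 0.0232. Over all alternatives, 141 of 149 member values against control kept direction and side of the threshold in Hdac1-deficient enteroids, 131 of 135 in Hdac2-deficient enteroids, where Jun was lost 4 times, and 144 of 148 between the mutants, where 4 were gained. The cause of these changes was not tested. Among the companion lists, counts that moved by over 1.5 times were the falling targets in Hdac1-deficient enteroids (10 with all 12 libraries in the fit), the falling targets in Hdac2-deficient enteroids (2 without control replicate 1 or Hdac2-deficient replicate 2), the falling pathway genes (8) and rising heat shock genes (5) in Hdac2-deficient enteroids without control replicate 1, and, between the mutants, the higher feedback inhibitors (2 without Hdac1-deficient replicate 4) and the higher heat shock genes (6 with library size alone).

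The replicate numbers were not known to pair libraries. The correlation of same-numbered libraries' deviations from their group means ran from -0.188 to 0.204 and was not above 0.1 in every pair. With the replicate block, 4 members rose and 2 fell in Hdac1-deficient enteroids at an adjusted p of at most 0.05 alone. With a change above 2-fold also required, 0 members and 1501 of all genes were called there. No call of a member changed with the block in any comparison. Fosb rested on 3 to 15 counts per library and Fosl1 on 22 to 45, and where tested they had the largest standard errors of the 10 genes.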
